A study of Mus musculus with 2 samples.

Results

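The miR-200 family was described in small RNA from newborn mouse lung. Its members were the 5 miRNA genes Mir200b, Mir200a and Mir429 on chromosome 4 and Mir200c and Mir141 on chromosome 6, taken by gene identifier and symbol and not by their values, of 1973 miRNA genes in the tables. All 5 had a row of their own and at least 5366 reads in each library. The samples were 2 libraries of RNA under 30 bases from lungs of B6NCrl mice, a C57BL/6N substrain, on postnatal day 0. Replicate 1 came from both lungs of pup 1 and replicate 2 from both lungs of pup 3, of pregnancy 1, and both carry 1 donor record in the labels. No treatment, mutation or transgene is named in the labels and sex was not collected, so the series is 1 group with no control. The level of a gene is its reads per 1000000 reads counted on miRNA genes (CPM). The family's mature strands have 21 to 23 bases, so levels were not divided by the length of the precursor.

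MicroRNAs are cut from a hairpin precursor and guide silencing complexes to messenger RNAs that pair with the seed, bases 2 to 8 of the mature strand. The miR-200 family is known from epithelia, where it represses ZEB1 and ZEB2, transcriptional repressors of E-cadherin, and these factors in turn repress both miR-200 clusters. In the lung it is known from the epithelium of airways and developing saccules, and loss of the family accompanies epithelial-to-mesenchymal transition. Neither the ZEB factors nor any other messenger RNA was measured here.

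The 3p strands are printed first because the seed divides the family. They are shown 5′ to 3′ with the seed in capitals, as given by RefSeq on GRCm38.p6, where all 5 members were found.

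miR-200b-3p: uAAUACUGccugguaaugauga
miR-429-3p: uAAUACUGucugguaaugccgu
miR-200c-3p: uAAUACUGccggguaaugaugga
miR-200a-3p: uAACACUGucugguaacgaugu
miR-141-3p: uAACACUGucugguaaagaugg

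Mir200b, Mir429 and Mir200c shared the seed AAUACUG, and Mir200a and Mir141 shared AACACUG. The seeds differ at position 4 from the 5′ end (U4C from miR-200b-3p to miR-200a-3p). Each cluster holds both seeds. Of the 1738 mature mouse miRNAs in the RefSeq table, 3 carried AAUACUG and 2 carried AACACUG, and these were the family's own. No other strand of that table adds to either seed, and any counted gene without an entry there was not searched.

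Outside the seed the strands are alike as well. Over the first 22 bases miR-200b-3p and miR-200c-3p differed at 2 positions (U11G and A22G), and miR-200a-3p and miR-141-3p at 2 positions (C17A and U22G). The other 8 pairs differed at 4 or 5 positions. The longest run of identical bases was 16, between miR-200a-3p and miR-141-3p. Across whole precursors the longest run that a member shared with another miRNA precursor was 17 bases, again for Mir200a and Mir141, and it was 14 for Mir200b and Mir200c and 12 for Mir429. A read of full mature length therefore has 1 exact place among these precursors. The number of mismatches allowed in mapping is not given in the sources used here, and reads moved between the likest pairs were not tested.

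The precursors are printed because a gene's count sums both arms of its hairpin. The 5p and 3p mature strands are in capitals.

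Mir200b: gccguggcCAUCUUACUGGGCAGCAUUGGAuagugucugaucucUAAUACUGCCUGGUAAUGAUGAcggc
Mir200a: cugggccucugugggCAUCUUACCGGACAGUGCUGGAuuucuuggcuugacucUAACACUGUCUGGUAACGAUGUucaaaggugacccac
Mir429: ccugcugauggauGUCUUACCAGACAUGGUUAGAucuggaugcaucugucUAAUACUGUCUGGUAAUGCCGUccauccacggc
Mir200c: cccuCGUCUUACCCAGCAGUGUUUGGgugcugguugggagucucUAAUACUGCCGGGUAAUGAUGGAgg
Mir141: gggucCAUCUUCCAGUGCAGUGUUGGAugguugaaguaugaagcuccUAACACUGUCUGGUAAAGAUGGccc

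Only Mir200b and Mir200a share a 5p seed, AUCUUAC. The 6 pairs of 5p strands without miR-429-5p differed at 5 to 8 positions. The 4 pairs with miR-429-5p differed at 13 to 16 when set together at the 5′ end, and at 6 to 9 of 21 with its first base set against the second of the other strand. Since the arms were counted together, the seed totals below count each gene under its 3p seed.

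On GRCm38 (mm10) all 5 precursors lie on the minus strand. Mir200b (ENSMUSG00000065549.2) is at chr4:156055681-156055750, Mir200a (ENSMUSG00000065400.1) at chr4:156054896-156054985 and Mir429 (ENSMUSG00000065427.1) at chr4:156053905-156053987. This cluster spans 1846 bases, with 695 bases between Mir200b and Mir200a and 908 between Mir200a and Mir429. In GENCODE M21 it lies in an intron of Ttll10, a tubulin tyrosine ligase-like gene, on the same strand, and Mir429 also overlaps an exon of the non-coding gene Gm13648. Mir200c (ENSMUSG00000065462.2) is at chr6:124718322-124718390 and Mir141 (ENSMUSG00000065474.1) at chr6:124717914-124717985, 336 bases apart in a span of 477. Both lie in an intron of the non-coding gene Gm15884, and Mir141 overlaps an exon of Gm29008. The nearest protein-coding genes are Ptpn6, a phosphatase gene of blood cells, 2317 bases upstream of Mir200c, and Phb2, a prohibitin gene, 964 bases downstream of Mir141.

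The libraries held 4532902 and 5426081 reads on miRNA genes in replicates 1 and 2. The family took 139563 of them in replicate 1 and 164540 in replicate 2. That is 3.08% (exact Clopper-Pearson 95% interval 3.063% to 3.095%) and 3.03% (3.018% to 3.047%), or 30556 ± 329 CPM (SD, n = 2). Intervals cover counting error only and no difference between pups. PCR copies of 1 molecule are not independent, so the intervals can be too narrow even for that. In whole lung, fewer epithelial cells and less of these RNAs per cell cannot be told apart.

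Members with the AAUACUG seed were the abundant ones. Mir429 stood at 11160 and 11925 CPM in replicates 1 and 2, a mean of 11543 ± 541 CPM (SD, n = 2). Mir200c stood at 9837 and 9840 CPM, with a mean of 9839 ± 2.14 CPM. Mir200b stood at 6822 and 5913 CPM, with a mean of 6368 ± 643 CPM. These 3 genes were 19th, 22nd and 26th of all 1973 genes by mean level.

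Both AACACUG members were lower. Mir141 stood at 1785 and 1583 CPM in replicates 1 and 2, a mean of 1684 ± 143 CPM (SD, n = 2). Mir200a stood at 1184 and 1062 CPM, with a mean of 1123 ± 86.2 CPM. They ranked 57 and 76. Neither overlapped any AAUACUG member in the range of the libraries. The lowest share of reads, that of Mir200a, had 5366 and 5762 reads behind it, and its exact 95% interval ran from 0.115% to 0.122% in replicate 1 and from 0.103% to 0.109% in replicate 2.

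**Figure D1:**
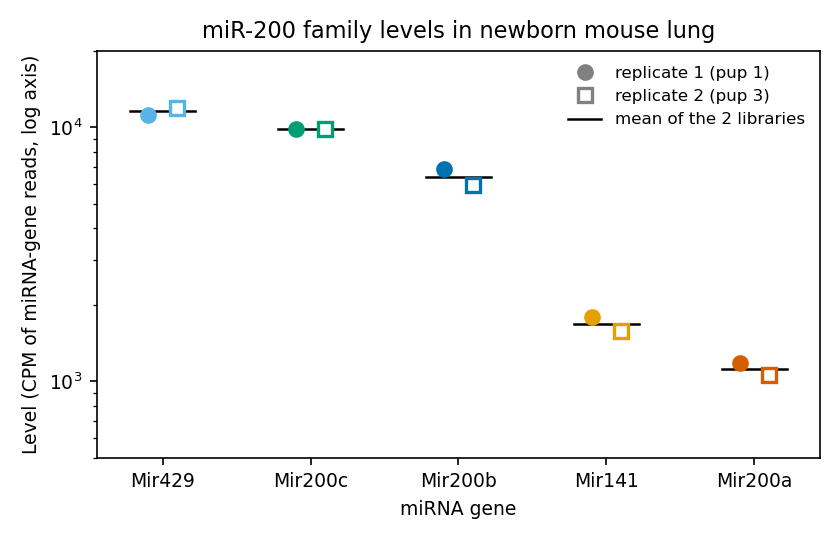
Level of each family member in CPM (log axis) in replicate 1 (filled circles) and replicate 2 (open squares), with the mean as a line. Mir429, Mir200c and Mir200b lie between 5913 and 11925 CPM, and Mir141 and Mir200a between 1062 and 1785 CPM.

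The order of mean levels was Mir429, Mir200c, Mir200b, Mir141 and Mir200a, and it was the same in both libraries. A step was called beyond the spread when its log2 ratio had 1 sign in both libraries and a mean larger than its SD. All 4 steps met this, although an exact two-sided sign-flip test over 2 libraries cannot give a p below 0.5. The smallest step was Mir429 over Mir200c, at 1.13-fold in replicate 1 and 1.21-fold in replicate 2, a mean log2 ratio of 0.23. Between the libraries, log2 ratios of pairs of genes averaging at least 1000 CPM shifted by a median of 0.21, near this step. Counted per base of precursor this step turned, to 139 CPM per base for Mir429 and 143 for Mir200c. The first place therefore rests on counting reads per gene and not per base. Mir200c exceeded Mir200b by 1.44-fold and 1.66-fold. The widest step was Mir200b over Mir141, at 3.82-fold and 3.74-fold, and it coincides with the change of seed. Mir141 exceeded Mir200a by 1.51-fold and 1.49-fold.

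Among all genes the members lay beside miRNAs of quite different origin. The measure here is closeness in mean CPM over 2 libraries, since 2 samples allow no correlation. Mir429 fell between Mir30d at 11727 ± 1257 CPM and Mir22 at 10359 ± 26.8 CPM (SD, n = 2), and overlapped the range of Mir30d only. Mir200c fell between Mir99b at 9942 ± 1110 CPM and Mir351 at 8977 ± 1894 CPM, and lay inside the range of both. Mir200b fell between the imprinted Mir127 and Mir17, a member of the growth-associated miR-17~92 cluster, Mir141 between Mir484 and Mir369, and Mir200a between Mir425 and Mir181d. Each of these last 6 ranges overlapped that of the family member beside it.

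**Figure D2:**
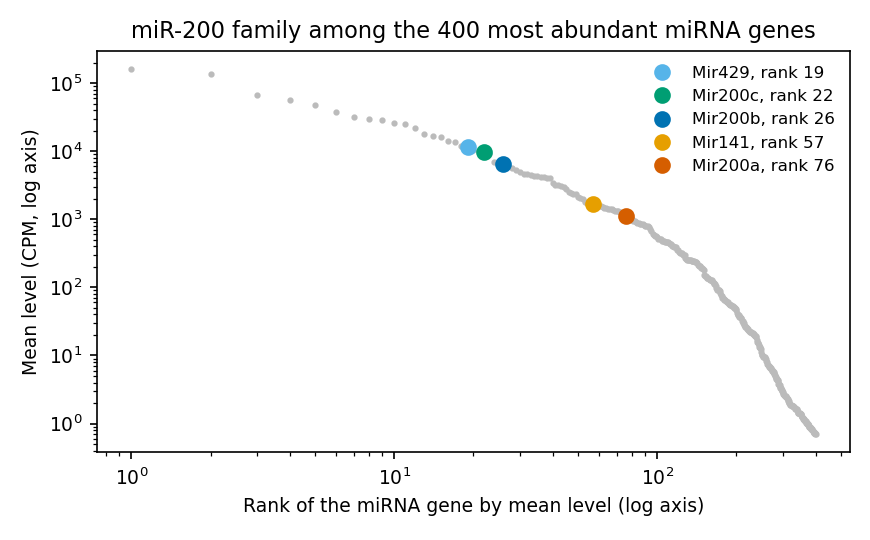
Mean level in CPM against rank for the 400 most abundant miRNA genes (both axes log), with the family members coloured. Mir429, Mir200c and Mir200b sit at ranks 19, 22 and 26, and Mir141 and Mir200a at 57 and 76. Reads mapped to several places are left out of the ranks.

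Within each cluster, where the members are known to come from a common primary transcript, levels were unequal. On chromosome 4, Mir429 was 1.64-fold above Mir200b in replicate 1 and 2.02-fold in replicate 2, and Mir200b was 5.76-fold and 5.57-fold above Mir200a. The lowest member is the one in the middle, so level did not follow the order of precursors along the transcript. On chromosome 6, Mir200c, the first precursor, was 5.51-fold above Mir141 in replicate 1 and 6.22-fold in replicate 2. In both clusters the AACACUG member was the lowest.

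**Figure D3:**
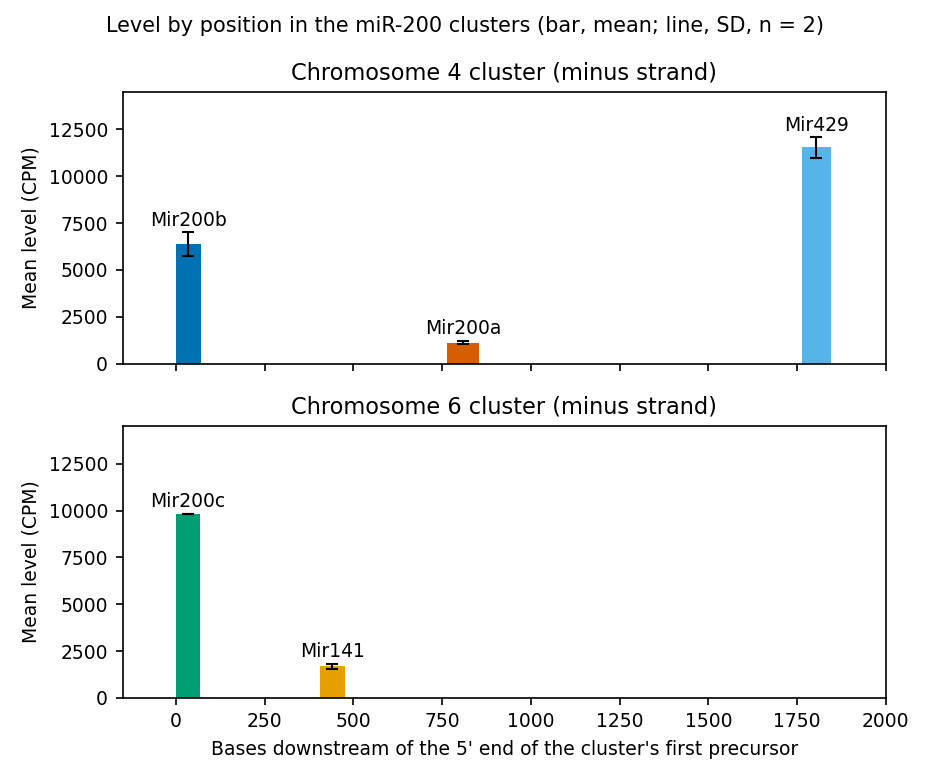
Mean level in CPM (bars, with SD lines, n = 2) at the place of each precursor, in bases downstream of the first precursor of its cluster, at 1 scale for both clusters. The AACACUG members Mir200a and Mir141 are the lowest bars, at 1123 and 1684 CPM, and Mir429 at the downstream end of its cluster is the highest, at 11543 CPM.

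By seed, the AAUACUG members summed to 27820 and 27679 CPM in replicates 1 and 2, and the AACACUG members to 2969 and 2645 CPM. The log2 ratio of these sums was 3.23 and 3.39, a mean of 3.31 ± 0.11 (SD, n = 2), or 9.90-fold. The genes with the AAUACUG 3p seed thus held 90.4% and 91.3% of the family's reads, with both arms counted. The ratio was larger on chromosome 4, at 15.2-fold and 16.8-fold, than on chromosome 6, at 5.51-fold and 6.22-fold. The former sums Mir200b and Mir429 over Mir200a, and the latter is Mir200c over Mir141 alone. Gene for gene, Mir200b over Mir200a, at 5.76-fold and 5.57-fold, lay inside the chromosome 6 range. Mir429 over Mir200a, at 9.43-fold and 11.2-fold, lay above it.

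By cluster, the chromosome 4 genes summed to 19166 and 18900 CPM in replicates 1 and 2, and the chromosome 6 genes to 11623 and 11424 CPM. The ratio was 1.649-fold in replicate 1 and 1.655-fold in replicate 2, a mean log2 ratio of 0.724 ± 0.0034 (SD, n = 2). Chromosome 4 therefore gave 62.3% of the family's reads in each library. It holds 3 of the 5 genes, so this share is near its share of the members. The cluster sums were not divided by the number of genes. The log2 ratio of the clusters differed by 0.0048 between libraries. Counting error of that difference was not computed, so its small size is no measure of precision. The log2 ratios of the 10 pairs of members differed by 0.017 for Mir141 over Mir200a to 0.30 for Mir429 over Mir200b. The median was 0.17. All 10 differed by more than the cluster ratio did, but that is a ratio of sums, in which opposite changes can cancel. Of 3160 pairs of genes that averaged at least 1000 CPM, 96.2% differed by at least 0.017, so this is not particular to the family.

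**Figure D4:**
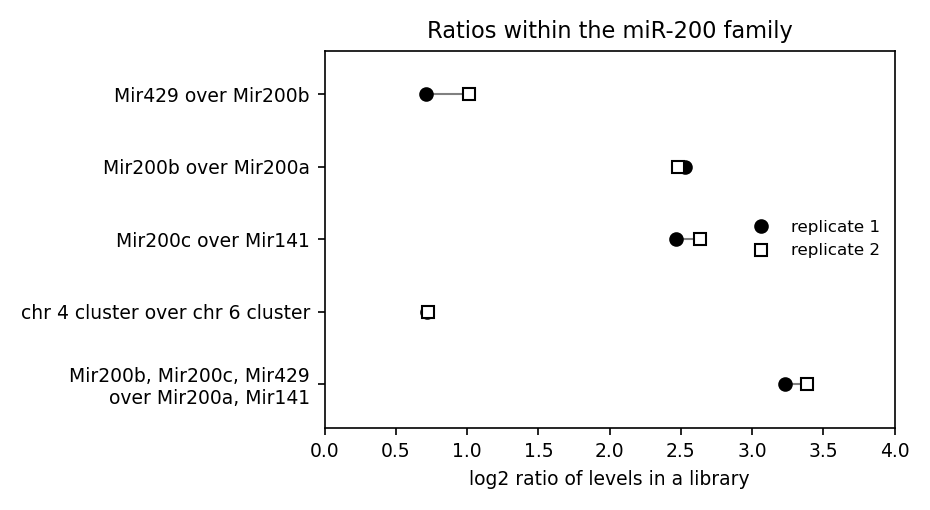
The log2 ratio of levels inside each library for pairs of members, for the clusters and for the seeds, with replicate 1 as filled circles and replicate 2 as open squares. The cluster ratio coincides in both libraries at 0.72 and 0.73, while Mir429 over Mir200b runs from 0.71 to 1.01.

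Replicate 2 was then compared with replicate 1 gene by gene, a comparison of 2 libraries and not of conditions. Mir200b had 30925 reads in replicate 1 and 32084 in the deeper replicate 2, a log2 ratio of levels of -0.21. Mir141, with 8092 and 8590 reads, had a log2 ratio of -0.17, and Mir200a, with 5366 and 5762 reads, one of -0.16. These 3 members were lower in replicate 2. Mir429, with 50588 and 64709 reads, was higher there, at 0.096, and Mir200c, with 44592 and 53395 reads, had a log2 ratio of 0.00044. In percent of the replicate 1 level the members ran from -13.3% for Mir200b to 6.86% for Mir429.

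Each gene's split of reads was set against the library sizes in an exact binomial test (two-sided, adjusted by Benjamini-Hochberg over the 375 genes whose 2 counts summed to at least 10). In it 4 of 5 members passed 0.05, against 42.4% of all genes tested. In the lower direction 3 members passed, against 23.2% of all genes, and in the higher direction 1 did, against 19.2%. The adjusted exact p was 1.12e-70 for Mir200b, 5.88e-14 for Mir141, 4.95e-08 for Mir200a and 3.98e-28 for Mir429, and 1 for Mir200c. The test covers counting error only and the members are deeply counted: of the 80 genes that averaged at least 1000 CPM, 69 passed, or 86.3%. With TMM scaling Mir200c also passed, at a log2 ratio of 0.070 (adjusted exact p = 2.42e-13), as it did with DESeq2's size factors, at 0.054 (2.61e-08). With TMM scaling the log2 ratio of Mir429 was 0.17.

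When the spread between libraries was put into the test, no member passed. In edgeR's exact test with a common dispersion, which corresponds to a coefficient of variation of 13.2% between libraries, 0 of 5 members passed and 0 had an unadjusted p below 0.05, against 1.07% of all genes called. That dispersion was estimated from the same libraries as if they were replicates, so a true difference between them widens it and this test can miss such differences. The smallest unadjusted exact p was 0.445, for Mir200b, and the adjusted p was 1 for each member. The members' differences lay inside the range of other abundant genes. Among the same 80, a log2 ratio at least as large as that of Mir200b was seen in 38.8%, and the SD of the log2 ratio was 0.23. The change of 0.30 in the ratio of Mir429 to Mir200b was matched or exceeded by 33.4% of the 3160 pairs of these genes, which share genes and libraries and are given as a description. The members' median log2 ratio was -0.16, beside 0.0033 over those 80 genes and -0.028 over all genes tested. The log2 ratio of the family total was -0.022.

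**Figure D5:**
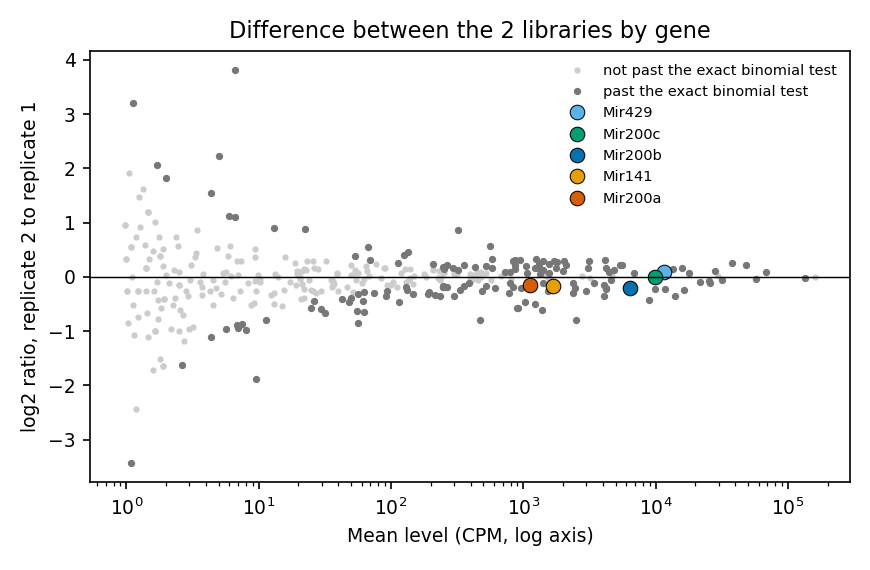
The log2 ratio of replicate 2 to replicate 1 against mean CPM (log axis) for 374 genes with reads in both libraries, dark where past the exact binomial test, with family members coloured. The members lie between -0.21 and 0.096, inside the spread of genes of like level.

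No read lay on the opposite strand of any member in either library. A count of 0 allows 3 reads, which is 0.662 CPM in replicate 1 and 0.553 CPM in replicate 2, for reads with a single position. The members' levels on either strand are therefore made of the same reads as those on the own strand.

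Other epithelial miRNAs were measured for comparison. A list of 7, made of Mir203 and Mir205 of stratified and basal epithelium, Mir375 of neuroendocrine cells, Mir182, Mir183 and Mir96 of the miR-183 cluster, and Mir31, summed to 8159 ± 169 CPM (SD, n = 2). The family total was above it by a log2 ratio of 1.94 in replicate 1 and 1.87 in replicate 2, or 3.75-fold at the mean. This excess depends on the list: multiciliated cells are airway epithelium too, and with their 5 listed miRNAs, led by Mir449a, added after the values were seen, the 12 genes summed to 30317 ± 279 CPM. The log2 ratio was then 0.032 in replicate 1 and -0.0090 in replicate 2, a difference not beyond the spread. The highest of the list was Mir182 at 2449 ± 240 CPM, between Mir200b and Mir141, followed by Mir375 at 2112 ± 221 CPM. Mir203 at 1227 ± 95.1 CPM overlapped Mir200a. Mir183, Mir96, Mir205 and Mir31 stood at 951, 684, 486 and 250 CPM. Of the 7 genes 5 passed the exact binomial test, 3 of them higher and 2 lower in replicate 2, again against 42.4% of all genes, and 0 passed in edgeR's test. These genes too are deeply counted: with a minimum of 100 reads, which all 7 met, 57.8% of 251 genes passed the binomial test.

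Markers of other compartments and organs were measured in the same libraries. Endothelial Mir126a was at 160649 ± 12.4 CPM (SD, n = 2), Mir143 of smooth muscle at 67837 ± 3158 CPM and Mir449a of multiciliated cells at 17777 ± 591 CPM, each above every family member. Other genes of these lists were lower than Mir200b, the endothelial Mir221 and Mir222 at 456 and 255 CPM, the mesenchymal Mir214 at 4247 CPM, Mir145a at 1554 CPM and the multiciliated Mir34c at 4218 CPM among them. Myeloid Mir223 was at 1307 ± 106 CPM and erythroid Mir451a at 890 ± 246 CPM. Of organs outside the chest, liver Mir122 was at 49.5 ± 5.08 CPM, and pancreatic Mir217 had 6 and 4 reads. Heart Mir208b was at 299 ± 6.33 CPM. Neural Mir9-3, with 0 and 2 reads, was the highest of its list, but the Mir9 and Mir124a genes on that list are repeated copies of 1 mature strand, as are Mir133a-1 and Mir133a-2, and Mir1a-1 has such a copy as well. Reads with several places are in no gene row, so the low or 0 counts of these genes set no limit on them. The part of these other cells in the family's share of reads was not tested.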

How the data were processed

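Small RNA was sequenced from the lungs of newborn mice in 2 libraries, 1 per pup. The authors deposited whole-number read counts per miRNA gene, not normalized, on mm10 with GENCODE M4 per the deposited description of the files. Alignment, counting program, trimming and filtering were not given in the sources used here. A table holds counts on either strand, the own strand and the opposite strand; the own strand was used. Rows without a gene were left out of library sizes: of all reads, those mapped to several places were 34.6% and 36.7%, unmapped reads 8.49% and 8.69%, and reads on no feature 2.18% and 2.41% in replicates 1 and 2. Counts were not corrected for adapter ligation, which can differ between sequences, so ratios between members are ratios of reads.

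Symbols and positions came from GENCODE M21 (1894 of 1973 identifiers matched). CPM, exact intervals and exact binomial tests were computed with Python 3.11.15 and scipy 1.17.1, scaling and the dispersion test with edgeR 4.0.16 and DESeq2 1.42.0 (size factors only). With 1 library on each side, edgeR's quasi-likelihood test could not be fitted. Both tests were tested on simulated data. Named genes were the members, the genes next to each in mean level, the epithelial list, the highest gene of marker lists and genes at the loci. Members and lists were chosen with earlier results of these data known.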

Additional observations from a re-analysis of the deposited data

How the results depend on the processing

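Another denominator moves every level, and ratios inside a library are fixed against it by arithmetic. Per 1000000 of all reads in the tables, the levels of Mir200b, Mir200a, Mir429, Mir200c and Mir141 were 3412, 601, 6169, 5263 and 902, the family total 16348 and the epithelial list 4363. Per 1000000 reads on genes other than Mir126a they were 7586, 1338, 13752, 11722 and 2006, with totals of 36405 and 9721. With reads on either strand Mir200c was at 9653 CPM and the family at 29981 CPM, and the log2 ratio of Mir200c between libraries turned from 0.00044 to -0.0018, not past the test in either case. Per base of precursor the levels were 91.0, 12.5, 139, 143 and 23.4 CPM per base in the first order. The log2 ratios then became 0.55 for the clusters, 0.62 for Mir429 over Mir200b, 2.86 for Mir200b over Mir200a, 1.96 for Mir200b over Mir141, 0.91 for Mir141 over Mir200a and -0.037 for Mir429 over Mir200c, the 1 order that turned. The precursor lengths, 69 to 90 bases, set these shifts. With the multiciliated list added to the epithelial list, an alternative chosen after seeing the data, the log2 ratio of the family to it fell from 1.91 to 0.011. Without either replicate, the 18 levels, totals and ratios stayed within 1 SD, which for 2 libraries follows from the arithmetic. The ratios among them also kept their direction, which does not follow from it. The ratio to the list with the multiciliated genes, not among the 18, changed sign, at 0.032 in replicate 1 and -0.0090 in replicate 2.

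Of members past the test between libraries, edgeR with a common dispersion left 0 of 4. TMM, DESeq2's size factors and a library size without the 10 most abundant genes gave 5, with Mir200c at 0.070, 0.054 and 0.052 and Mir429 at 0.17, 0.15 and 0.15 on the log2 scale, and either strand, no filter and a minimum of 100 reads gave 4. No paired analysis was possible because the series has 1 group. Leaving out a library leaves no difference between libraries to test. Depth did not limit the members. Reads mapped to several places are in no gene row.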
